A study of Caenorhabditis elegans with 2 samples.

Results

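The large subunit of the cytoplasmic ribosome is built from ribosomal RNA and the products of the rpl genes, and this account gives the chromatin binding of GRH-1 at the promoters of these genes in Caenorhabditis elegans larvae. The 47 genes were every protein-coding gene on chromosomes I to V and X, of 19973 in all in Ensembl release 115, whose name starts with rpl-. They lie on I (15 genes), II (9), III (9), IV (7), V (5) and X (2). ChIP-seq, the sequencing of DNA precipitated with a chromatin protein, was done on whole L1 larvae of strain RW12208, in which a CRISPR insertion fused TY1, EGFP and 3xFLAG to grh-1 at its own locus on chromosome I, and the precipitation used an antibody against GFP. The study has 1 group, starved larvae synchronised by bleaching at an age of 6 h, with 2 biological replicates and no second genotype, stage or feeding state. Whole animals were used, so a peak does not tell in which cells GRH-1 was bound. The values are those of the authors' peak lists on the build ce11, and the control library and the reads were not analysed here.

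GRH-1 is the worm member of the Grainyhead family, transcription factors known for their roles in the epidermis and other epithelia. Ribosomal proteins are needed in every growing cell, and their genes are among the most strongly transcribed of an animal. Worms that hatch without food stop development as L1 larvae, and larvae that lack their own copy of rpl-5 or rpl-33 complete embryogenesis on maternal ribosomes and arrest at the same stage.

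The DNA at the 5 highest rpl summits is shown first, 50 bases to either side of the summit, in the direction of the gene and 5′ to 3′ on ce11, because these carry the strongest GRH-1 signal in the module. A summit is the base of a peak at which the authors placed its maximum. The stretches are chrIII:3867514-3867614 on the plus strand for rpl-3, chrIII:7854639-7854739 on the plus strand for rpl-35, and, on the minus strand, chrIV:4750016-4750116 for rpl-20, chrIV:4390606-4390706 for rpl-7A and chrIV:654873-654973 for rpl-15. Each summit lies in no annotated gene, upstream of its rpl gene. Capitals mark matches, on either strand, to 1 of 4 short elements that were picked because they recur at rpl summits: element 1 is ACGAGTG, element 2 is ACCGTA, element 3 is GGCCTAAA and element 4 is CGAGACCC.
rpl-3: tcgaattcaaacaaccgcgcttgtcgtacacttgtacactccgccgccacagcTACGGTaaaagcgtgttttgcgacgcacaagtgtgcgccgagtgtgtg
rpl-35: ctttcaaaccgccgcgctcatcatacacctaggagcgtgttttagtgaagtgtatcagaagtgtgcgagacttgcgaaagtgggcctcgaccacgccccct
rpl-20: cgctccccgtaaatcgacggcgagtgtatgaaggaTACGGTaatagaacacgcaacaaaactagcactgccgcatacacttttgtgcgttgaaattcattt
rpl-7A: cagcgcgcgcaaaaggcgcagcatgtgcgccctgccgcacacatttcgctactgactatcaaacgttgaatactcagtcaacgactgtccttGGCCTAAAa
rpl-15: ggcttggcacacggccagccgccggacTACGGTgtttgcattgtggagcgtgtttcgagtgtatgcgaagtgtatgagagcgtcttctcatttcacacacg

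A second set shows a longer sequence that recurred at rpl summits, element 1 and element 2 on the same strand with 2 bases between them, called the paired site below. It is shown for 6 rpl genes, again 5′ to 3′ on ce11: chrII:5055367-5055417 on the plus strand for rpl-22, chrIII:7208057-7208107 on the plus strand for rpl-6, chrIII:8130500-8130550 on the minus strand for rpl-21, chrIV:12268548-12268598 on the plus strand for rpl-34, chrIV:13881960-13882010 on the plus strand for rpl-29 and chrX:2242942-2242992 on the minus strand for rpl-11.2. Capitals mark the 2 elements. In all 6 the site points in the direction of the rpl gene. Of all 9 paired sites in rpl windows 8 do so, the exception being that of rpl-1, which is not printed.
rpl-22: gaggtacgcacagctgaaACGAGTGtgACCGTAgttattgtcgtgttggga
rpl-6: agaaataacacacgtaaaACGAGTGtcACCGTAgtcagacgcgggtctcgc
rpl-21: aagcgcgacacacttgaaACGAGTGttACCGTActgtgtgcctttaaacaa
rpl-34: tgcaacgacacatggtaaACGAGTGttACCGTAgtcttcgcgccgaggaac
rpl-29: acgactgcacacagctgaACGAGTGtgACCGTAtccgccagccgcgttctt
rpl-11.2: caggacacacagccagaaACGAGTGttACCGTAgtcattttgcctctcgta

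Of the 47 rpl genes, 30 (63.8%, 95% Wilson interval 49.5 to 76.0) had a GRH-1 summit of the pooled list between 1000 bp upstream and 200 bp downstream of an annotated 5′ end, and each of the 30 had exactly 1. Among all protein-coding genes the share was 8.16% in the same window. When each summit was given to its nearest 5′ end alone, 18 rpl genes (38.3%, 25.8 to 52.6) kept one, against 6.15% of all genes. The pooled list holds 2470 peaks from both replicates together that passed an irreproducible discovery rate (IDR, the estimated share of peaks that would not repeat) of at most 0.01. No test was run between the rpl genes and other genes, since the genes were chosen with earlier results of these data known, and the intervals cover counting error only. Genes with a summit were found on each of the 6 chromosomes: 8 of 15 on I, 6 of 9 on II, 7 of 9 on III, 5 of 7 on IV, 3 of 5 on V and 1 of 2 on X.

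The other deposited lists gave much the same share. A conservative pooled list also held summits at 30 rpl genes, against 7.96% of all genes, with rpl-14 and rpl-17 in place of rpl-9 and rpl-32. The list of replicate 1 held summits at 29 (61.7%, 47.4 to 74.2; all genes 6.64%) and that of replicate 2 at 27 (57.4%, 43.3 to 70.5; all genes 5.53%). In all, 24 of the 47 genes were in all 4 of these lists, 5 were in 3, 1 was in 2, 3 were in 1 and 14 were in none. The counts over the 4 lists were not made for all genes, so they describe the rpl genes without a comparison. The authors' ranked lists, which keep weak peaks that failed the IDR limit, put a summit at 46 rpl genes in the pool, 44 in replicate 1 and 43 in replicate 2. Those lists placed one at 81.2% of all genes in the pool, 75.6% in replicate 1 and 70.3% in replicate 2, so presence there says little about rpl genes.

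**Figure D1:**
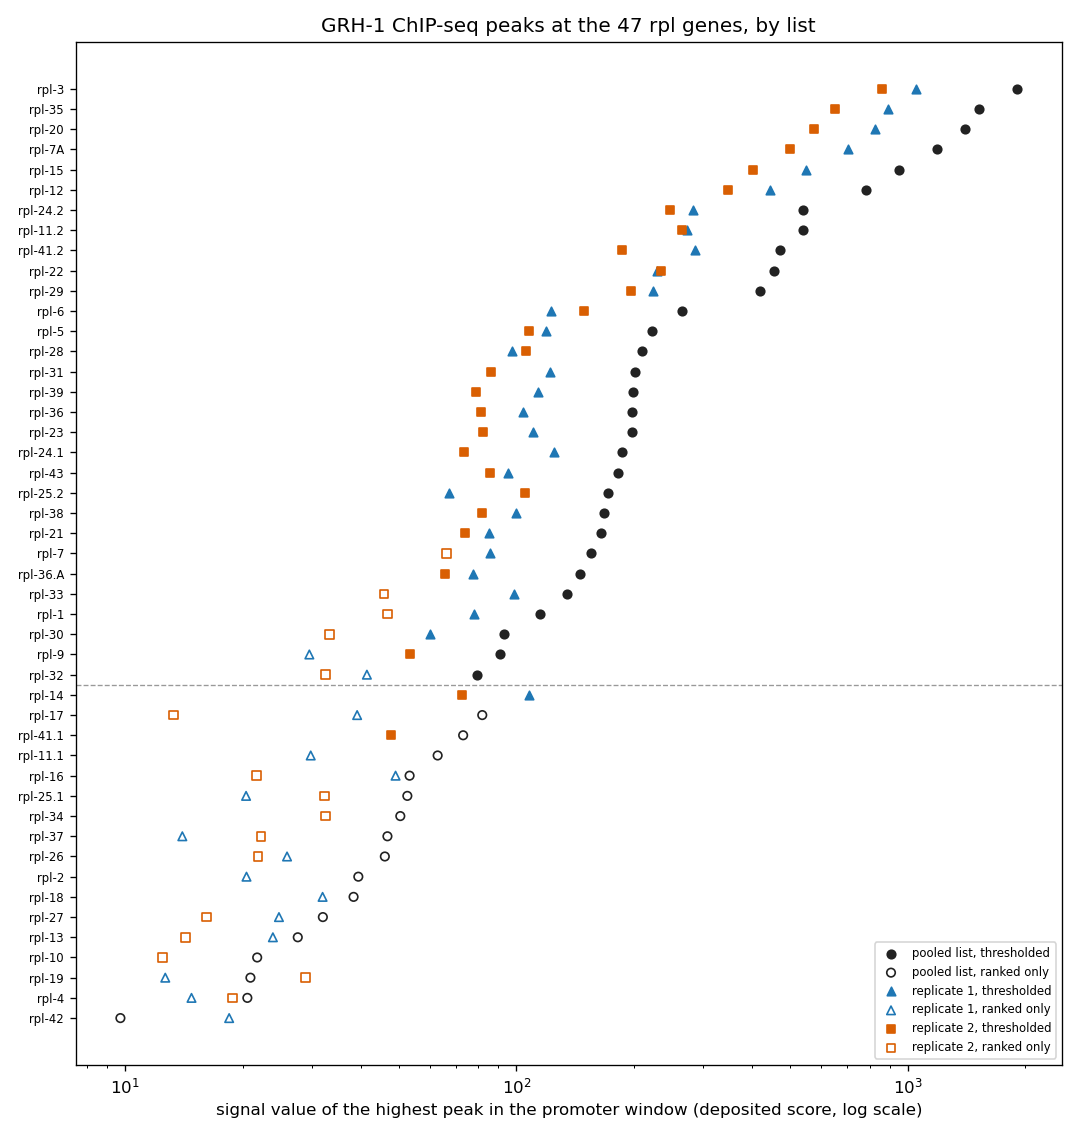
Signal value of the highest peak in the promoter window of each of the 47 rpl genes (horizontal axis, the authors' score, log scale; genes run down the page, ordered by the pooled list). Circles are the pooled list, triangles replicate 1 and squares replicate 2; filled symbols passed the IDR limit and open symbols stand in the ranked list only. Above the dashed line are the 30 genes with a pooled summit, which span 79.5 to 1906 in the pooled list, and below it 16 of the other 17 have open circles at 9.73 to 81.8.

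The signal value is the authors' score of peak height within a list. The sources used here do not state its scale. Where the conservative, pooled and pooled ranked lists held the same rpl peak, they gave it the same value. Values of the pool and of each replicate are not on a common scale. Over the 30 rpl summits it ran from 79.5 to 1906 with a median of 200.2, against a median of 141 over the 1307 other promoter summits and 127 over all 2470 summits. Of the 30, 6 (20%) were among the 100 highest of the list, which is 4.05% of it. The 617 highest summits, 24.98% of the list, held 12 of the 30 (40%), and the 1235 highest, 50% of it, held 26 (86.7%). In replicate 1 the medians were 116 at rpl summits and 103 at other promoter summits, and in replicate 2 they were 105 and 91.1.

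The highest rpl summit, sixth in the whole pooled list, belonged to rpl-3, whose protein reaches towards the peptidyl transferase centre of the ribosome. Its peak at chrIII:3867422-3867717 scored 1906 in the pooled list, 1048 in replicate 1 and 860.0 in replicate 2. The summit lay 290 bp upstream of the 5′ end, in no other gene's window.

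Both rpl-35 and rpl-39 encode proteins at the exit of the tunnel through which the new chain leaves, and their peaks differed widely in height. That of rpl-35 at chrIII:7854550-7854829, 445 bp upstream, had 1525 in the pooled list, 889 in replicate 1 and 651 in replicate 2. That of rpl-39 at chrV:7776157-7776500 had 199 in the pooled list, 114 in replicate 1 and 78.6 in replicate 2. The rpl-39 summit lay in the window it shares with rps-30, a small subunit gene on the opposite strand.

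A group of 4 genes on chromosome IV came next. The peak of rpl-20 at chrIV:4749933-4750215 had 1400.0 in the pooled list, 824 in replicate 1 and 575 in replicate 2. The peak of rpl-7A at chrIV:4390512-4390799 had 1192, 705 and 499 in the same 3 lists, and that of rpl-15 at chrIV:654810-655038 had 953, 550.3 and 402. These proteins are structural parts of the subunit, and all 3 genes share the bound stretch with a gene on the opposite strand, namely Y17G9B.5, set-21 and K11H12.8 in the same order. The protein of rpl-12, at the base of the stalk that recruits translation factors, has its gene next to lin-54, and the peak between them at chrIV:13240566-13240800 had 785, 444 and 347. The summits of rpl-12 and rpl-7A lay closest to a 5′ end of all 30, at 23 and 66 bp upstream.

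Between 419 and 542 in the pooled list stood rpl-24.2, rpl-11.2, rpl-41.2, rpl-22 and rpl-29. The peak of rpl-22 at chrII:5055279-5055474 had 456 in the pooled list, 229 in replicate 1 and 235 in replicate 2. The peak of rpl-29 at chrIV:13881860-13882042 had 419, 224 and 197 in the same lists. Their windows are shared with ify-1, which encodes a securin, for rpl-22 and with thoc-7 for rpl-29. The twelfth highest, at rpl-6 (chrIII:7208056-7208148), had 265 in the pooled list, 123 in replicate 1 and 149 in replicate 2. Below rpl-6 the values lay close together: 18 summits ran from 79.5 to 223. That of rpl-5, which binds the 5S ribosomal RNA together with rpl-11, was the highest of these with 223 in the pooled list, 119 in replicate 1 and 108 in replicate 2. Another 8 of them, at rpl-28 (209), rpl-31 (202), rpl-36 (197), rpl-23 (197), rpl-43 (182), rpl-38 (167), rpl-21 (165) and rpl-36.A (146), were in the lists of both replicates, at 77.3 to 122 in replicate 1 and 65.7 to 106 in replicate 2.

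The duplicated genes differed within each pair. Of rpl-11.2 and rpl-11.1, the first had a peak at chrX:2242902-2243085 with 541 in the pooled list, 272 in replicate 1 and 265 in replicate 2. For rpl-11.1 on chromosome V, the highest peak stood in the ranked list only, with 62.9 in the pool and a −log10 IDR of 0.11, 29.8 in replicate 1 and no peak in replicate 2. The pair rpl-25.2 and rpl-25.1, relatives of human RPL23A, was split in the same way. For rpl-25.2 the values were 171 in the pooled list, 67.4 in replicate 1 and 105 in replicate 2. For rpl-25.1 the highest peaks of the ranked lists had 52.6, 20.4 and 32.3 in the same order. Those of the pool and replicate 2 lay at −396 and −361 bp from the 5′ end (negative upstream). That of replicate 1 was a different peak, 157 bp downstream. The copy with the peak is on X for rpl-11 and on I for rpl-25.

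Both genes of the rpl-24 pair were bound. The peak of rpl-24.2 at chrI:9669151-9669360 had 542 in the pooled list, 282 in replicate 1 and 247 in replicate 2, and that of rpl-24.1 at chrI:4584669-4585012 had 186, 125 and 73.5. The product of rpl-24.2 is the relative of RSL24D1, which in yeast and human cells holds the place of the subunit protein during assembly, whereas rpl-24.1 encodes the subunit protein itself. The genes rpl-41.1 and rpl-41.2, which encode the same kind of very small basic protein, lie in tandem on chromosome I. A peak at chrI:4789917-4790123 between them, 261 bp upstream of rpl-41.2 and 841 bp downstream of the 5′ end of rpl-41.1, had 473 in the pooled list, 286 in replicate 1 and 186 in replicate 2. At rpl-41.1 itself a peak stood in the list of replicate 2 with 47.8 and in the pooled ranked list with 73.1, and no peak stood there in replicate 1.

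The replicates mostly found the same rpl promoters. Of the 30 rpl peaks of the pooled list, 24 (80%) overlapped a peak in the lists of both replicates by at least 1 bp, against 56.4% of the other promoter peaks and 50.2% of all pooled peaks. The pooled list was made from the same reads as the replicates' lists and is not independent of them. The 25 genes with a summit in both replicates' lists were ordered alike by the signal values of the replicates (Spearman's rho 0.849, across genes, which are not independent replicates and share the 2 libraries). The summits of the replicates lay a median of 10 bp apart in these 25 genes, and at most 49 bp. The signal value of replicate 1 was 1.22 times that of replicate 2 at the median, with a range of 0.640 to 1.70; the numbers of reads are unknown, so the level of this ratio cannot be read.

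The lists of the replicates disagreed at 6 rpl genes. The peaks of rpl-7 (85.5), rpl-33 (98.5), rpl-1 (78.1) and rpl-30 (60.3) were in the list of replicate 1 only. In the ranked list of replicate 2 these promoters had peaks of 66.3, 45.9, 46.9 and 33.3. The −log10 IDR of these was 1.25, 0.87, 1.87 and 0.96, under the limit of 2. Those of rpl-9 (53.5) and rpl-41.1 (47.8) were in the list of replicate 2 only. In the pooled list the peak of rpl-7 at chrI:110559-110902 had 155, that of rpl-33 at chrII:7104999-7105342 had 134, that of rpl-1 at chrI:2876337-2876680 had 115, that of rpl-30 at chrI:10435629-10435972 had 92.8 and that of rpl-9 at chrIII:7572921-7573264 had 91.0. The products of rpl-7, rpl-30 and rpl-9 are structural parts of the subunit. The peak of rpl-32 at chrII:9056767-9057110, in the pooled list with 79.5 and the lowest of the 30, was in neither replicate's list; the ranked lists held 41.5 for replicate 1 and 32.5 for replicate 2. These are the low end of the module, since each of the 23 highest rpl summits was matched in both replicates. In the whole pooled list, the rpl-7 summit ranked 976 and the rpl-32 summit 2135.

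Of the 17 rpl genes with no pooled summit, rpl-14 stood apart. Its promoter held a peak in both replicates' lists, 108 in replicate 1 and 72.7 in replicate 2, and in the conservative list, 168 at chrI:9688724-9689067, 301 bp upstream. The pooled list and the pooled ranked list had no summit in its window; the reason was not tested. The peak of rpl-17 at 81.8 was in the conservative list, 966 bp upstream, with a −log10 IDR of 1.30 in the pooled ranked list, under the limit of 2. The next highest of the ranked peaks belonged to rpl-41.1 (73.1), rpl-11.1 (62.9) and rpl-16 (53.3). Over the 16 genes with a ranked peak, the values ran from 9.73 at rpl-42 to 81.8 with a median of 42.8, where the pooled ranked list as a whole had a median of 23.9.

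For most of the 17 the nearest pooled summit was far away, at a median of 19936 bp from a 5′ end. It was within 1000 bp for rpl-26 (213 bp), rpl-27 (722 bp) and rpl-41.1 (841 bp), in each case downstream and outside the window. The 14 genes in no thresholded list were rpl-2, rpl-4, rpl-10, rpl-11.1, rpl-13, rpl-16, rpl-18, rpl-19, rpl-25.1, rpl-26, rpl-27, rpl-34, rpl-37 and rpl-42. They include rpl-2 and rpl-4, whose proteins lie deep in the subunit, and rpl-10, whose protein joins late in its assembly, so genes for core proteins were found both among those with and those without a summit.

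The position of the summits was narrow. All 30 lay upstream of the nearest annotated 5′ end of the gene, at a median of 295.5 bp (quartiles 349 and 252 bp), and 22 (73.3%) lay 200 to 400 bp upstream. Of the other 1696 pairs of a promoter summit and a gene, 93.3% lay upstream, with a median of 235 bp and quartiles of 469 and 121 bp, and 26.5% lay 200 to 400 bp upstream. Measured from the outermost 5′ end, 29 of the 30 lay upstream, the exception being rpl-32, whose summit lay 146 bp downstream of it and inside the gene. The farthest rpl summit, at rpl-43, lay 714 bp upstream and nearer to the divergent gene Y48B6A.1. Messages of many C. elegans genes, rpl genes among them, receive a spliced leader in place of their own first bases, so that annotated 5′ ends mark the place of trans-splicing and not the start of transcription. In the annotation the 5′ end of 42 of the 47 rpl genes was within 30 bp of the start codon, with a median of 6 bp.

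**Figure D2:**
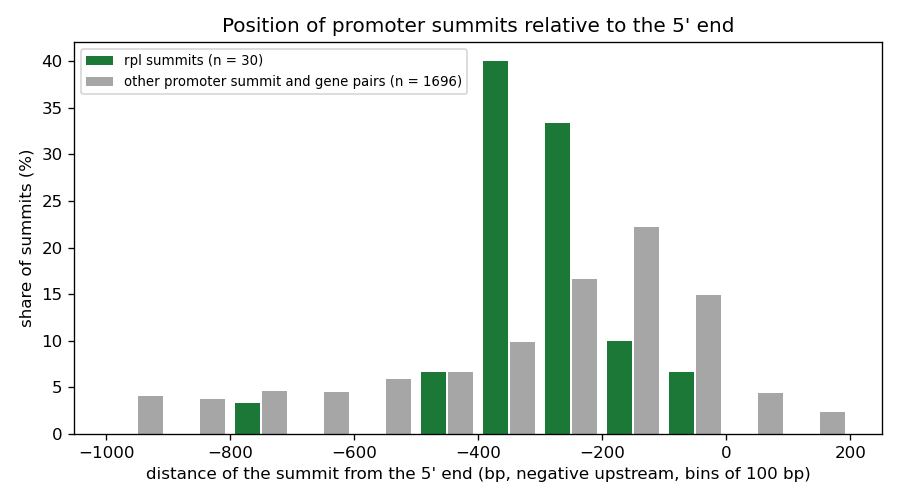
Distance of GRH-1 summits of the pooled list from the annotated 5′ end (bp, negative upstream, in bins of 100 bp) as a share of summits, for the 30 rpl summits (green) and for 1696 pairs of another promoter summit and a gene (grey). The bins from 400 to 200 bp upstream hold 40% and 33.3% of the rpl summits, against 9.85% and 16.6% of the others.

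Many rpl genes sit back to back with another gene, and most of the rpl summits lay in the windows of both. A gene on the opposite strand began within 1000 bp upstream of 20 of the 30 rpl genes with a summit (66.7%) and of 8 of the 17 without one (47.1%), against 18.2% of all protein-coding genes. Of the 30 rpl summits, 22 (73.3%) were also in the window of another gene, against 27.9% of the other promoter summits, and the nearest 5′ end was that of the rpl gene in 18. Peak lists do not tell which of the 2 genes a shared summit belongs to. Neighbours with a role in ribosomes were the small subunit genes beside rpl-39 (rps-30), rpl-36 (rps-14) and rpl-24.1 (rps-10), the mitochondrial ribosomal gene mrpl-49 beside rpl-28, and lpd-7, the relative of the ribosome assembly factor Pescadillo, beside rpl-9. Other shared neighbours were pab-1, which encodes a poly(A)-binding protein, beside rpl-30, nuo-1, a subunit of respiratory complex I, beside rpl-36.A, and rab-11.1, a GTPase of recycling endosomes, beside rpl-7. Of the 30 summits, 21 lay in no annotated gene, 6 in a noncoding RNA gene, and 3 in a protein-coding gene, namely C03D6.1 for rpl-24.2, pab-1 for rpl-30 and rpl-32 itself.

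No rpl summit carried a Grainyhead-type sequence. Grainyhead proteins are known to bind AACCGGTT and near relatives of it, and this palindrome, its form AACTGGTT and the core ACCGGT, which lies inside the palindrome, were searched on both strands within 100 bp of each summit. Of the 30 rpl summits 0 had any of them, which by a limit of 3 counts allows a share of up to 10% (Wilson upper limit 11.4%), against 123 of 1307 other promoter summits (9.41%, 7.94 to 11.11). In the 500 bp upstream of the 5′ end, 3 of the 47 rpl genes (6.38%) held any of the 3, against 5.81% of all protein-coding genes. These were 0 of the 30 rpl genes with a summit and 3 of the 17 without one (17.6%). The E-box CACGTG was also at 0 of 30 rpl summits, against 9.72% of the others, and 8.62% of all 500 bp upstream stretches hold it. The repeat GAGAGA was at 6 of 30 (20%, 9.51 to 37.3), against 32.7% (30.3 to 35.3), and at 29.98% of all upstream stretches. The sequence AGACGCAG was at 2 of 30 rpl summits (6.67%), against 12.6% of the others, and in 5.30% of the upstream stretches of all genes. The median GC content of the 201 bp windows was 43.0% at rpl summits and 42.3% at other promoter summits.

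Sequences that mark other promoter landmarks were counted at 2 distances. The TATA-type sequence TATAAA was within 100 bp of 2 of 30 rpl summits (6.67%), against 12.6% of the others, and within 200 bp of 13 (43.3%, 27.4 to 60.8), against 33.7% of the others. The splice acceptor sequence TTTCAG, which also marks trans-splice sites, was within 100 bp of 8 (26.7%), against 19.5% of the others, and within 200 bp of 20 (66.7%, 48.8 to 80.8), against 48.2% of the others. In the 500 bp upstream of the outermost 5′ end, TATAAA was found at 25 of 47 rpl genes (53.2%), against 54.0% of all genes, and TTTCAG at 43 (91.5%), against 65.4%.

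The 4 elements printed in capitals above recurred at rpl summits, and their shares there are descriptions, since they were picked from these summits. The same holds for their upstream shares at rpl genes with a summit, because most of these summits lie in the bases searched. A higher share there than at rpl genes without a summit was favoured by the choice of the elements. Element 1 was within 100 bp of 8 of the 30 rpl summits (26.7%), against 2.75% of the 1307 other promoter summits, element 2 of 17 (56.7%), against 8.88%, element 3 of 8 (26.7%), against 0.995%, and element 4 of 8 (26.7%), against 4.13%. At least 1 of them was near 22 of 30 (73.3%), against 183 of the 1307 other summits. Small subunit genes also had them: of 19 rps summits that no rpl gene shares, 9 (47.4%) had at least 1. Element 3 was at 4 of these 19 (21.1%), element 2 at 5 (26.3%), element 4 at 2 (10.5%) and element 1 at 1 (5.26%). In the 500 bp upstream of the outermost 5′ end, at least 1 was found at 24 of the 30 rpl genes with a summit (80%). It was found at 9 of the 17 without one (52.9%), at 17 of 28 rps genes away from rpl genes (60.7%) and at 19.1% of all genes. Element 3 was found there at 10 of 30 rpl genes with a summit (33.3%) and 5 of 17 without (29.4%). These compare with 7 of the 28 rps genes (25%) and 1.65% of all genes. Element 4 was found at 8 of 30 (26.7%) and 6 of 17 (35.3%), against 2.68%. Element 1 was found at 10 of 30 rpl genes with a summit (33.3%) and 1 of 17 without (5.88%), against 2.73% of all genes. The counts are small, and the 1 of 17 leaves out rpl-19. Its element 1, in a paired site, lies upstream of an inner 5′ end and not of the outermost. Element 2 was found at 18 of 30 (60%) and 7 of 17 (41.2%), against 13.9%.

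**Figure D3:**
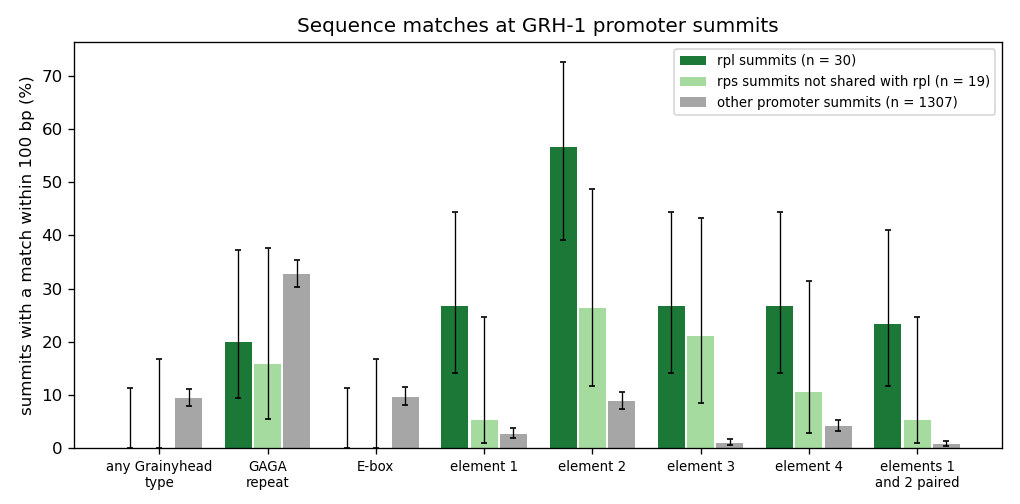
Share of summits with a match within 100 bp (vertical axis, %) for 8 kinds of sequence, at the 30 rpl summits (dark green), at 19 summits of rps genes that no rpl gene shares (light green) and at 1307 other promoter summits (grey, which include the rps summits); error bars are 95% Wilson intervals. Grainyhead-type sequences and the E-box are at 0 in both ribosomal groups, and the elements, which were picked from the rpl summits, stand highest there, with element 2 at 56.7%.

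The elements were found at high and low rpl summits. Of the 6 highest summits, those of rpl-35 and rpl-12 had none of the 4, those of rpl-3 and rpl-15 had elements 2 and 3, that of rpl-20 had element 2 and that of rpl-7A had element 3. Element 1 lay from −50 to 38 bp of the summit (positive in the direction of the gene), with a median of 22.5 bp. Element 3 lay after the summit at 8 of its 9 sites, with a median of 45.5 bp. Element 4 lay to both sides, at a median of 1 bp.

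**Figure D4:**
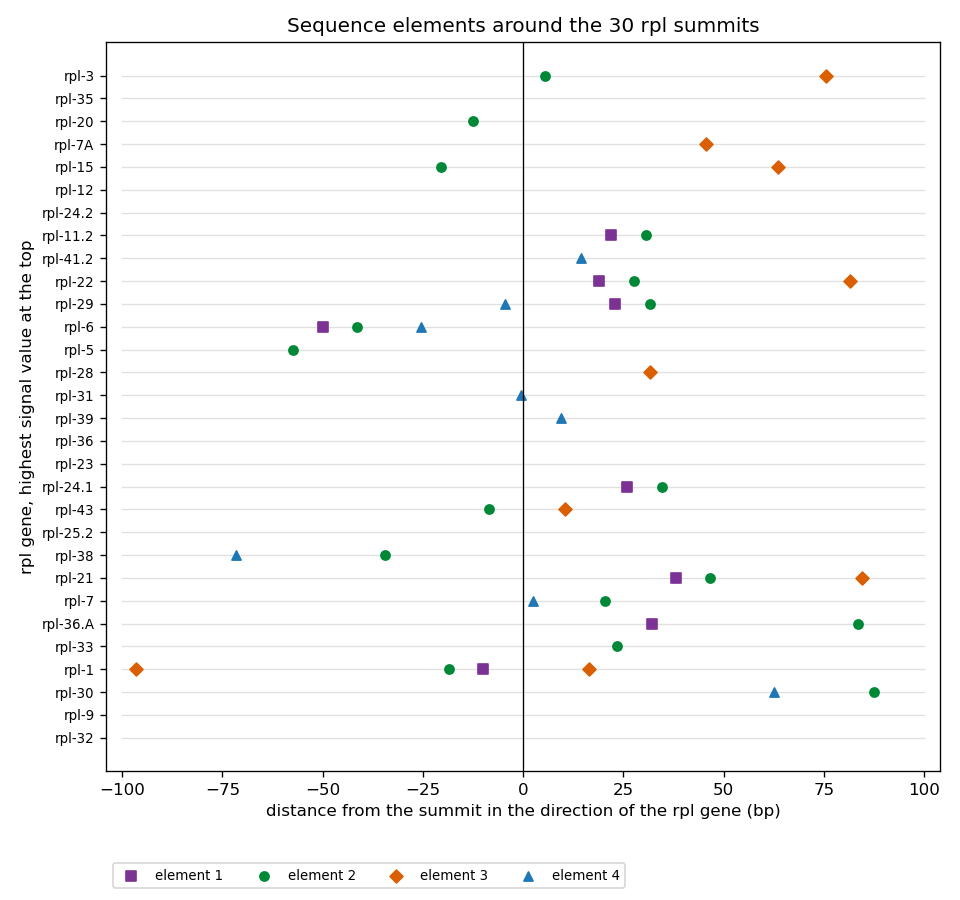
Positions of elements 1 to 4 within 100 bp of the 30 rpl summits (horizontal axis, bp from the summit in the direction of the rpl gene; each row is a gene, the highest signal value at the top). Purple squares are element 1, green circles element 2, orange diamonds element 3 and blue triangles element 4. Squares and circles side by side are the paired site, which stands at 7 rpl genes, and 8 of the 30 rows are empty.

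The paired site was rare. The genome of chromosomes I to V and X holds 33, of which 31 lie in a promoter window, and 17 (51.5%) lay within 100 bp of a pooled summit, a count that includes the rpl sites from which the sequence was picked. The share ran from 39.4% with the list of replicate 2 alone to 54.5% within 200 bp of a pooled summit. Of the 990 AACCGGTT sites of these chromosomes, inside promoter windows or not, 95 (9.60%) lay within 100 bp of a pooled summit. The 2 shares are of unlike sets, because nearly all paired sites lie in promoter windows and some were used to pick the sequence. Of all bases in promoter windows, 1.02% lie that near to a summit. The windows of rpl genes hold 9 of the 33, at rpl-1, rpl-6, rpl-11.2, rpl-19, rpl-21, rpl-22, rpl-24.1, rpl-29 and rpl-34, and 7 of these were near a summit, all but those of rpl-19 and rpl-34. Relative to the 5′ end these 9 lay at −422 to −215 bp (median −265 bp, negative upstream), and 8 pointed in the direction of the rpl gene, the exception being rpl-1. At the 7 with a summit, the summit lay between −42 bp (before) and 46 bp (after) of the site. Among the 24 sites outside rpl windows, 10 (41.7%, 24.5 to 61.2) were near a summit. The sequence was picked at rpl summits of the same data, so this share is a description and not an independent check. The sequence alone did not go with a summit at rpl-34, printed above, at rpl-19, or at 4 of the 5 sites in windows of rps genes away from rpl genes. The highest peaks of the pooled ranked list in these 2 rpl windows, 50.5 at rpl-34 and 20.9 at rpl-19, were not at the site. At rpl-34 the summit of that peak lay 179 bp downstream of the 5′ end, and the site at −422 bp. At rpl-19 it lay at chrI:5486987, and the site at chrI:5486000-5486014. In the ranked list of replicate 2, the highest peak at rpl-19 (28.9) had its summit nearer to the site, at chrI:5486113. In that of replicate 1 the highest (12.7) had its summit at chrI:5487065.

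The other genes of ribosome production are given beside the 63.8% of the rpl genes, and no difference between the groups was tested. The groups share summits, which are counted in each. Those of rps-30, rps-14 and rps-10 are also the summits of rpl-39, rpl-36 and rpl-24.1. Likewise, mrpl-49 shares its summit with rpl-28, and lpd-7 with rpl-9. Of the 31 small subunit genes, 21 (67.7%, 50.1 to 81.4) had a pooled summit, with signal values from 92.6 to 826 (median 257), against 8.16% of all genes. Their highest were rps-19 (826), rps-12 (795) and rps-1 (703), all below the 5 highest rpl summits, and 16 of the 21 lay 200 to 400 bp upstream, against 22 of 30 for rpl. Genes for stalk proteins were looked up by the names rla-0, rla-1 and rla-2 alone, and any under other names were not counted. Of these 3 genes, 0 had a pooled summit (Wilson upper limit 56.1%). Of 41 genes for the large subunit of the mitochondrial ribosome, 8 (19.5%, 10.2 to 34.0) had one, the highest at mrpl-28 (509). Of 29 genes for ribosome assembly factors found under 37 names, 9 (31.0%, 17.3 to 49.2) had one, among them ruvb-2 (284), nol-58 (271) and fib-1 (253), whose products act in the modification of ribosomal RNA or in the assembly of the particles that carry it out.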

How the data were processed

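The deposited files are peak lists on ce11 from ChIP-seq of 1 group with 2 biological replicates, per the labels, whose description names an antibody against GFP and whose antibody field gives grh-1. No source used here names the aligner or the peak caller. The deposited signal value is a score with no stated scale, and the authors' ranked lists also give the −log10 of the IDR; 16 further columns of per-sample values were not used. Depth is unknown.

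Genes were those of Ensembl release 115 and bases those of the RefSeq genome, which share chromosome lengths with ce11. Summits were assigned to promoter windows, and motifs and elements were searched within 100 bp with Python 3.11.15, numpy 2.4.6, pandas 2.3.3 and SciPy 1.17.1; figures used matplotlib 3.10.9. The steps were checked on simulated data. The genes, gene lists and motifs were chosen with earlier results of these data known, and elements 1 to 4 and the paired site after the sequences at rpl summits were seen. Named in full were the 12 highest rpl summits, duplicated genes, genes on which lists disagree and the 4 highest ranked peaks without a summit. No test of a difference was run, since there is 1 group. Alternatives were other lists, windows, 5′ ends and overlap rules.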

Additional observations from a re-analysis of the deposited data

How the results depend on the processing

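Of 81 recomputed values of the planned results, 74 stayed within the 95% interval of the reported value, and 34 of 35 did for the elements and the paired site, which were added after the data were seen. Many of these values reuse the same summits, and the Grainyhead-type sequences overlap one another, so the values are not independent checks. The share of rpl genes with a summit stayed between 55.3% and 63.8% under other lists, wider or narrower windows, outermost 5′ ends and merged regions, but was 38.3% (18 of 47) when each summit was given to its nearest 5′ end alone. With 1 replicate's list in place of the pooled one, the share was 57.4% to 61.7%, the median signal value 105 to 116, on the scales of those lists, and the share with any ranked peak 91.5% to 93.6%. The median distance ran from −309.5 to −295.5 bp. Grainyhead-type sequences stayed at 0 under each alternative, and CACGTG was at 2 of 30 summits in the conservative list. Moved values among single sequences were those of TATAAA and TTTCAG, at 0% and 3.33% within 50 bp and 43.3% and 66.7% within 200 bp, and of element 3, at 13.3% within 50 bp. No paired analysis was possible because there is 1 group. The unknown number of reads and the lack of a second condition limit every value to the description of these lists.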

Other observations

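The paired site of elements 1 and 2 also lay near a summit in windows outside the rpl genes, most of them of genes with no ribosomal protein name. Of the 10 sites outside rpl windows with a summit within 100 bp, the highest signal values in the pooled list were 1082 in the window of ndk-1, which encodes a nucleoside diphosphate kinase, 588 at eel-1, a ubiquitin ligase, and 514 between T26A8.4 and pdtf-1. The remaining 7 had values from 87.4 to 400.2, among them 400.2 at rps-23, 379 between top-2, a topoisomerase, and npp-3, a nucleoporin, and 207 between ile-2 and trap-2, which act in the secretory pathway. Sites with no summit near were found in the windows of oma-2, ife-3, phb-1, rpn-5 and others.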
